A study of Mus musculus with 15 samples.

Results

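Matrix metalloproteinases are secreted or membrane-bound enzymes that cut collagens and other proteins of the extracellular matrix. Timp1 encodes a protein that blocks many, but not all, of them. The genes described are Mmp2, Mmp3, Mmp8, Mmp9, Mmp10, Mmp12, Mmp13, Mmp14, Mmp19 and Timp1. They were taken by symbol from the deposited table and are 10 of its 23420 symbols, and the rule used symbols only. Each of the 10 passed the filter on low values.

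Transcript abundance was measured in 15 bulk tumors, 5 groups of 3, grown from mouse melanoma cells in female C57BL/6 mice aged 8 weeks, the strain given for every sample. Each flank received 1000000 cells, and the left-flank grafts were treated on days 8, 10 and 12 and taken on day 13. The parental line is D4M.3A.3, and the UV2 line is D3UV2, to which UVB light had added putative neoantigens. Parental tumors received isotype control antibody, anti-PD-1 (an antibody against a checkpoint receptor of T cells) or triple therapy, and UV2 tumors received isotype antibody or anti-PD-1. The labels conflict on triple therapy: the characteristics name anti-PD-1, imiquimod (a cream that activates an innate immune receptor) and ablative fractional photothermolysis (a laser that drills small columns into skin), while the treatment protocol lists imiquimod and the laser with isotype antibody. The antibody used is therefore unknown, and the laser was used on days 8 and 12 only. Each line is a single cell line, and whether replicate libraries stem from different mice is not stated, so p-values here reflect only sample-to-sample spread, which may be technical.

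These enzymes are made as inactive precursors and are activated outside the cell, so transcript abundance does not measure their activity. Mmp14 sits in the cell membrane and activates the precursor of Mmp2, Mmp9 is carried by neutrophils and macrophages, Mmp8 is the collagenase stored by neutrophils, and Mmp12 is the elastase of macrophages. Tumors draw on several of these sources at once: the cancer cells, fibroblasts and infiltrating myeloid cells.

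Of the 9 Mmp genes, 5 lie in a cluster of Mmp genes on chromosome 9, in the order Mmp13, Mmp12, Mmp3, Mmp10 and Mmp8 along the plus strand. These 5 lie between 7272514 and 7568485 of GRCm38, a span of 296.0 kb that also holds Mmp1a and Mmp1b. Further Mmp genes follow beyond that span, with Mmp27, Mmp20 and Mmp7 starting at 7571396, 7628231 and 7692090. RefSeq promoters (GRCm38.p6) matched 7 of the 10 genes. The 120 bases upstream of the start are shown for these 7, because Mmp13, Mmp12 and Mmp8, the genes that did not overlap between triple therapy and isotype, lie in the same cluster as Mmp3 and Mmp10. Capitals mark TGANTCA, the binding motif of the AP-1 factors, and TATAAA, the TATA box, each searched on both strands.
Mmp13, chr9:7272394-7272513, plus strand: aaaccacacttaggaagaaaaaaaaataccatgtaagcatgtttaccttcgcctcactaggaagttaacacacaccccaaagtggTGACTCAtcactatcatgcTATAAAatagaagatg
Mmp12, chr9:7344277-7344396, plus strand: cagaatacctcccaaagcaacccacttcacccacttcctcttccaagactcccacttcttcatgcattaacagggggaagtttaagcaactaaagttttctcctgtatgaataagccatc
Mmp3, chr9:7445702-7445821, plus strand: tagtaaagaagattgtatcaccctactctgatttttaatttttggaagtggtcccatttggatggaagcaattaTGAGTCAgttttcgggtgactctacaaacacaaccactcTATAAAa
Mmp10, chr9:7502222-7502341, plus strand: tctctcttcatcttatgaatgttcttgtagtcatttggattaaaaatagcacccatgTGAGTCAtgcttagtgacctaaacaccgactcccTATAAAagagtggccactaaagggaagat
Mmp8, chr9:7558309-7558428, plus strand: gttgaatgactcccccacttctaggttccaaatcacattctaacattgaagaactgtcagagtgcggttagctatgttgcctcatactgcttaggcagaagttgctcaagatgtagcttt
Mmp14, chr14:54431478-54431597, plus strand: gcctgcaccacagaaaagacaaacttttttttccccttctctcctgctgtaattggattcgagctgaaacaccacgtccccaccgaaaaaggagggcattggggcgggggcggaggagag
Timp1, chrX:20870046-20870165, plus strand: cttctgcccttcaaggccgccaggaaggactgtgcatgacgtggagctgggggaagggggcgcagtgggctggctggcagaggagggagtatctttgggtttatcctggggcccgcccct
Both motifs occurred in Mmp13, Mmp3 and Mmp10, and neither occurred in Mmp12, Mmp8, Mmp14 or Timp1. Within 120 bases upstream, 3.4% of the 32851 promoters in the table held TGANTCA and 6.3% held TATAAA. A further motif, AGGAAG of the PEA3 factors, was present in the printed stretch of Mmp13, Mmp12 and Timp1 on either strand, against 16.3% of promoters. It overlapped no AP-1 or TATA match. These are letter matches in a window and not measured binding sites.

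Values are TPM, a transcript abundance unit that scales each library to the same total and corrects for transcript length. Between 12239 and 13993 genes reached 1 TPM per library, and depth is unknown because TPM keeps none. Correlations between libraries on log2(TPM + 1) ran from 0.82 to 0.99. Of the melanocyte markers, Sox10, Dct, Pmel and Mlana failed the filter on low values, with means of 0.379, 0.539, 0.706 and 0.285 TPM and 0 in some libraries, while Mitf averaged 9.20 TPM and Tyr 2.68 TPM. Sox10, Dct, Pmel and Mlana were therefore near 0 on average, while Mitf and Tyr passed the filter. Keratinocyte markers summed to 156, 1564 and 22123 TPM in the triple-therapy tumors, to 307 TPM in UV2 anti-PD-1 replicate 3 and to at most 4.53 TPM in the other 11 libraries. In bulk tissue, fewer cells of a type and less RNA per cell cannot be told apart.

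Timp1, Mmp14 and Mmp2 were the most abundant of the 10 transcripts. Timp1 ranged from 433.33 to 2712.86 TPM and ranked between 43 and 334 by abundance within a library. Mmp14 ranged from 318.72 to 978.54 TPM and Mmp2 from 180.45 to 1461.34 TPM. Together these 2 enzymes made up 67.5% to 91.4% of the summed Mmp transcripts. Mmp3 followed with a median of 150.76 TPM, then Mmp19 with 57.07 TPM and Mmp9 with 20.17 TPM. Mmp13 and Mmp12 had medians of 11.17 and 9.65 TPM, Mmp10 had 3.67 TPM, and Mmp8 had 0.80 TPM and reached 1 TPM in 6 of the 15 libraries. The spread differed widely: the highest library exceeded the lowest 3.07-fold for Mmp14, 3.36-fold for Mmp19 and 66.6-fold for Mmp9.

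**Figure D1:**
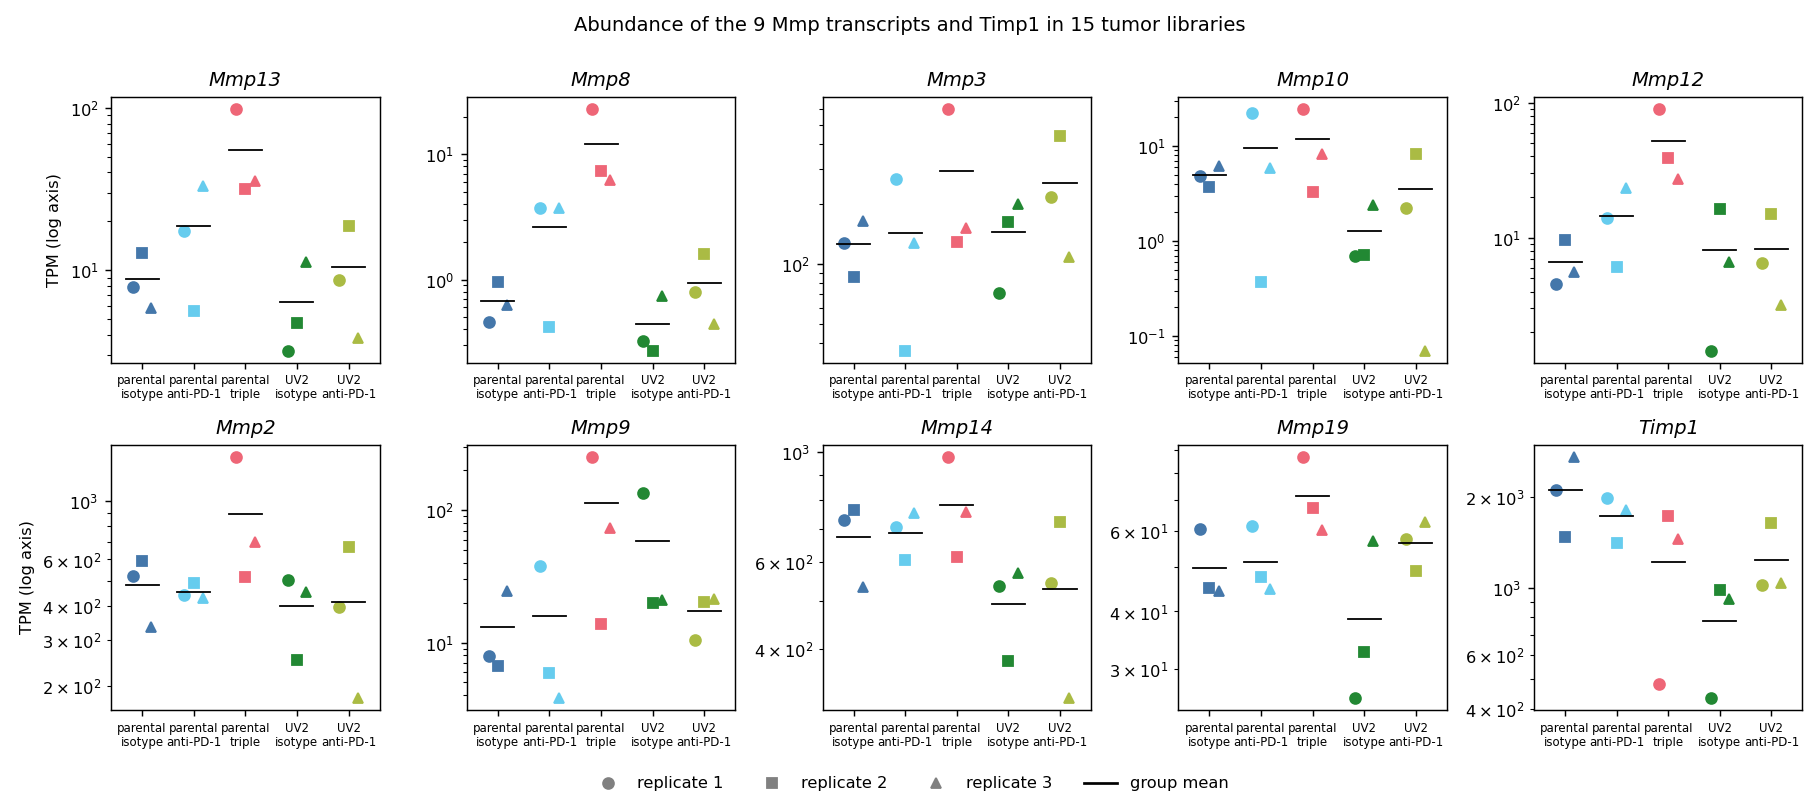
TPM of each gene (log axis) in the 15 tumors by group, with 1 symbol per library (shape gives the replicate number) and a bar at the group mean. Triple-therapy replicate 1 is the highest of the 15 libraries for all 9 Mmp genes, and its Timp1 value of 484.18 TPM is the second lowest.

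One library stood apart and is named before the comparisons. Triple-therapy replicate 1 had the highest value of the 15 libraries for 9 of 9 Mmp genes. It also had the highest summed markers of keratinocytes (22123 TPM), neutrophils (3315 TPM), macrophages and monocytes (7315 TPM) and fibroblasts (13995 TPM). The triple-therapy differences of the 10 genes are given with and without it.

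The comparison of triple therapy with isotype in parental tumors addresses expression after combination therapy. The collagenases Mmp8 and Mmp13 and the elastase Mmp12 were higher in all 3 triple-therapy tumors than in any isotype tumor, by 2.38 to 2.76 on the log2 scale of TPM + 1. None of the 10 genes passed the test, so these are differences that did not reach the threshold. Over all 13592 genes tested, 0.0221% were called (3 genes), and 12.7% were higher in all 3 triple-therapy tumors than in all 3 isotype tumors. That share compares with 3 of the 10 genes here.

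Mmp8, the neutrophil collagenase, was 0.46, 0.95 and 0.63 TPM in parental isotype tumors, 3.73, 0.42 and 3.76 TPM under anti-PD-1, and 22.93, 7.37 and 6.22 TPM under triple therapy. In UV2 tumors it was 0.32, 0.27 and 0.74 TPM under isotype and 0.80, 1.60 and 0.44 TPM under anti-PD-1. Every triple-therapy tumor exceeded every other tumor of the series, and anti-PD-1 replicate 2 of the parental line, at 0.42 TPM, lay just below the lowest parental isotype value. The log2 fold change of triple therapy against isotype was 2.76 (SE 0.50, limma, Benjamini-Hochberg adjusted p = 0.104), the 12th smallest p of all genes. Without triple-therapy replicate 1 it was 2.22 (adjusted p = 0.412), and without triple-therapy replicate 2 it was 2.98 and passed (adjusted p = 0.0287). The adjusted p ran from 0.0287 to 0.558 over the libraries left out in turn.

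Mmp13 encodes collagenase 3, the main interstitial collagenase of rodents. It was 7.82, 12.82 and 5.88 TPM in parental isotype tumors, 17.50, 5.64 and 33.05 TPM under anti-PD-1, and 97.95, 31.81 and 35.41 TPM under triple therapy. UV2 tumors had 3.19, 4.75 and 11.17 TPM under isotype and 8.65, 18.69 and 3.84 TPM under anti-PD-1. Triple therapy and isotype did not overlap, whereas anti-PD-1 replicate 3 at 33.05 TPM lay among the triple-therapy values. The difference from isotype was 2.38 on the log2 scale (SE 0.66, limma adjusted p = 0.316), and 1.87 without triple-therapy replicate 1.

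Mmp12, which degrades elastin, was 4.58, 9.65 and 5.54 TPM in parental isotype tumors, 13.91, 6.09 and 23.21 TPM under anti-PD-1, and 89.37, 39.03 and 27.40 TPM under triple therapy. In UV2 tumors it was 1.46, 16.32 and 6.58 TPM under isotype and 6.49, 15.05 and 3.17 TPM under anti-PD-1. The 3 triple-therapy values were the highest of the series. The difference from isotype was 2.68 on the log2 scale (SE 0.71, limma adjusted p = 0.313), and 2.21 without triple-therapy replicate 1. Exons of Mmp12 overlap those of Mmp1b on the opposite strand, so without strand-specific counting, which is not given in the sources used here, reads of both could mix. Mmp1b itself averaged 0.419 TPM.

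Mmp9, the gelatinase of myeloid cells, varied widely within groups. It was 7.85, 6.71 and 24.70 TPM in parental isotype tumors, 38.05, 5.90 and 3.80 TPM under anti-PD-1, and 253.19, 13.87 and 73.90 TPM under triple therapy. UV2 isotype tumors had 133.59, 19.81 and 20.99 TPM, and UV2 anti-PD-1 tumors had 10.48, 20.17 and 21.26 TPM. Triple-therapy replicate 2 lay inside the isotype range, and UV2 isotype replicate 1 exceeded 2 of the 3 triple-therapy tumors. The difference of triple therapy from isotype was 2.44 on the log2 scale (SE 1.04, limma adjusted p = 0.366), and 1.47 without triple-therapy replicate 1.

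The other enzymes overlapped between triple therapy and isotype. Mmp3, stromelysin 1, was 598.18, 128.14 and 150.76 TPM under triple therapy and 127.20, 85.70 and 164.29 TPM under isotype, and its log2 difference of 0.89 dropped to 0.19 without triple-therapy replicate 1. Mmp10, stromelysin 2, was 24.43, 3.29 and 8.25 TPM against 4.83, 3.67 and 6.21 TPM, and its log2 difference of 0.79 became 0.12 without that library. Of the 50-base stretches of the Mmp3 transcript 8.39% occur elsewhere, mainly in Mmp10, and 8.37% of those of Mmp10 occur in Mmp3, so the reads of these stretches cannot be assigned with certainty. Mmp3 was far more abundant, with a median of 150.76 TPM against 3.67 TPM, so the Mmp10 values may include some Mmp3 reads. In UV2 anti-PD-1 replicate 3, Mmp10 was 0.07 TPM beside 108.18 TPM of Mmp3. In parental anti-PD-1 replicate 1 it was 22.20 TPM beside 265.84 TPM. The part of Mmp3 reads in the Mmp10 values was not tested. Mmp2, gelatinase A, was 1461.34, 515.93 and 700.86 TPM against 521.61, 593.62 and 333.96 TPM, a log2 difference of 0.78 that was 0.36 without replicate 1. For each of these 3 genes the difference shrank by over 1.5 times without that 1 tumor.

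Mmp14 and Mmp19 had the smallest log2 differences in the fit over all 15 libraries. Mmp14, the membrane-bound activator, averaged 784 ± 184 TPM (SD, n = 3) under triple therapy and 675 ± 124 TPM under isotype. Mmp19, a broadly expressed enzyme of the family, averaged 71.4 ± 13.8 TPM and 49.8 ± 9.12 TPM, and exons of Gm47093 and Tmem198b overlap it on the opposite strand. Their log2 differences were 0.21 and 0.51, with limma adjusted p of 0.782 and 0.429. Without triple-therapy replicate 1 they were 0.032 and 0.36, and that of Mmp19 then exceeded those of Mmp3 and Mmp10.

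Timp1 was the 1 gene of the 10 with a lower mean under triple therapy than under isotype. It was 484.18, 1733.68 and 1451.58 TPM against 2109.19, 1476.31 and 2712.86 TPM, so that the groups overlapped. The log2 difference was -0.93 (SE 0.44, limma adjusted p = 0.407), and -0.36 without triple-therapy replicate 1.

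Over the 10 genes the median log2 difference of triple therapy from isotype was 0.84, with 9 of 10 positive, beside a median of 0.12 over all genes tested. Without triple-therapy replicate 1 the median of the 10 was 0.36. Rescaling the libraries by the median of ratios moved the median of all genes to -0.01 and left 9 of the 10 positive, with a median of 0.71.

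Triple therapy was also compared with anti-PD-1 in the parental line, where no gene of the 13592 was called (0%) and 7.3% were higher and 5.01% lower in all 3 triple-therapy tumors. The same triple-therapy libraries enter this and the preceding comparison. Mmp8, Mmp12 and Mmp2 were higher in all 3 tumors here, with log2 differences of 1.83, 1.78 and 0.84 and limma adjusted p of 0.377, 0.436 and 0.561. Parental anti-PD-1 tumors held 439.70, 487.56 and 429.78 TPM of Mmp2, all below the lowest triple-therapy value of 515.93 TPM. Mmp9 differed by 2.59 (SE 1.04) and Mmp13 by 1.61 (SE 0.66), both with overlapping groups. The other differences were 1.06 for Mmp3, 0.74 for Mmp10, 0.47 for Mmp19, 0.17 for Mmp14 and -0.68 for Timp1. Without triple-therapy replicate 1 the differences of Mmp8, Mmp12 and Mmp13 were 1.29, 1.30 and 1.10, that of Mmp9 dropped to 1.61 and that of Mmp2 to 0.41, which is less than its standard error of 0.46. Mmp3, Mmp10, Mmp19, Mmp14 and Timp1 were then at 0.36, 0.066, 0.32, -0.0055 and -0.11. At an unadjusted p under 0.05 limma had 1411 genes, 4 of the 10 among them, and 1714 genes, again 4 of the 10, against isotype. Without triple-therapy replicate 1 these counts were 417 genes with 1 of the 10, and 486 genes with 3 of the 10.

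**Figure D2:**
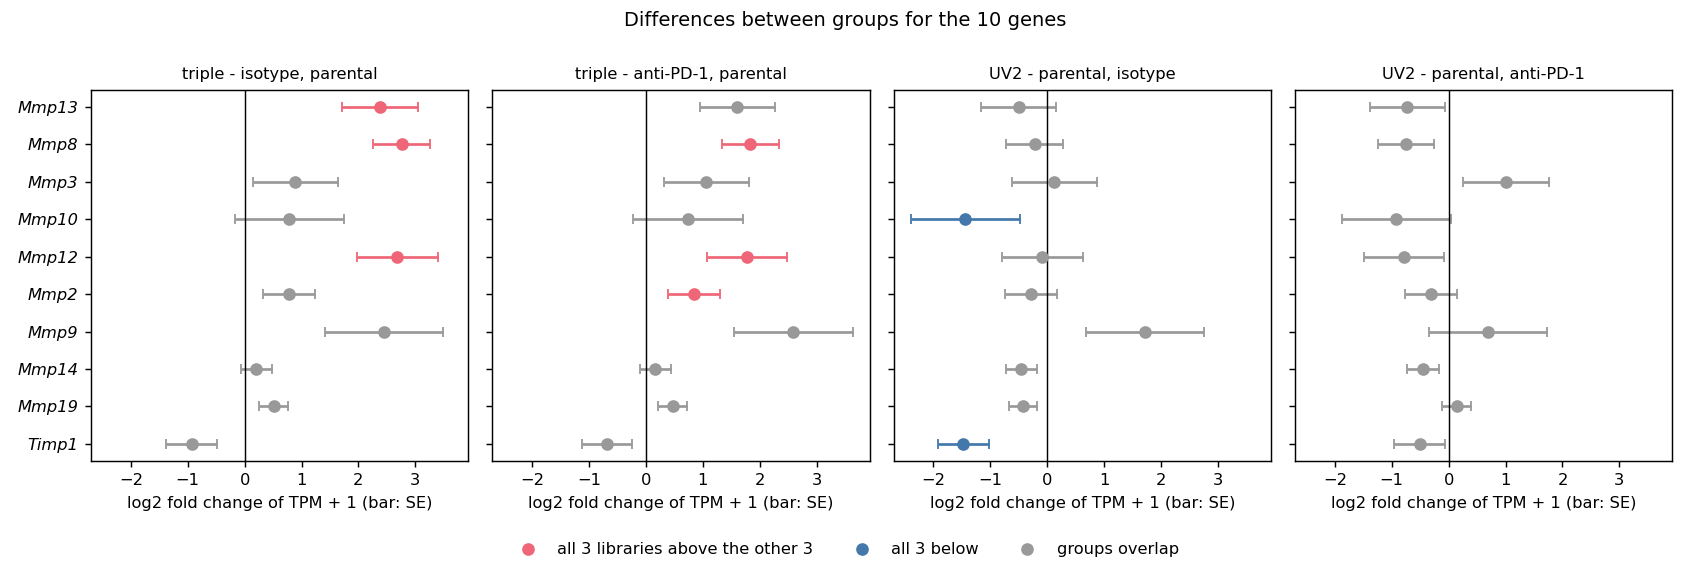
Log2 fold changes on the TPM + 1 scale with their standard errors for the 10 genes in 4 comparisons, from the limma model over 15 libraries, colored where the 3 libraries of each group did not overlap. Mmp13, Mmp8 and Mmp12 lie 2.38 to 2.76 above isotype under triple therapy, and Timp1 lies 1.47 below parental isotype in UV2 isotype tumors.

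Listed markers of several other cell types were mostly higher under triple therapy than under isotype, while those of T cells were not. Neutrophil markers (8 of 9 listed were in the table) summed to 3315, 120 and 484 TPM in the triple-therapy tumors and to 34.85, 18.02 and 124.95 TPM in parental isotype tumors. Triple-therapy replicate 2 thus lay inside the isotype range. S100a8, an abundant neutrophil transcript, was 1618.01, 46.42 and 220.16 TPM against 13.74, 3.86 and 36.89 TPM. Macrophage and monocyte markers summed to between 3819 and 7315 TPM under triple therapy and between 2305 and 3108 TPM under isotype, with no overlap. Fibroblast markers summed to between 3792 and 13995 TPM and between 2069 and 2543 TPM. Krt14, a keratin of the basal epidermis, was 11620, 85.65 and 844.88 TPM in the triple-therapy tumors and at most 0.63 TPM in the parental isotype tumors. Replicate 1 had the highest sum of the neutrophil, macrophage and monocyte, fibroblast and keratinocyte lists. T cell markers summed to 29.34, 19.28 and 30.48 TPM under triple therapy and to 20.26, 16.87 and 57.54 TPM under isotype. Of these 4 markers 1 had a positive log2 difference (median -0.21). In triple-therapy replicates 1, 2 and 3 Mmp8 was 22.93, 7.37 and 6.22 TPM, and the keratinocyte sums were 22123, 156 and 1564 TPM. The part of these cell types in the differences of the Mmp genes was not tested.

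**Figure D3:**
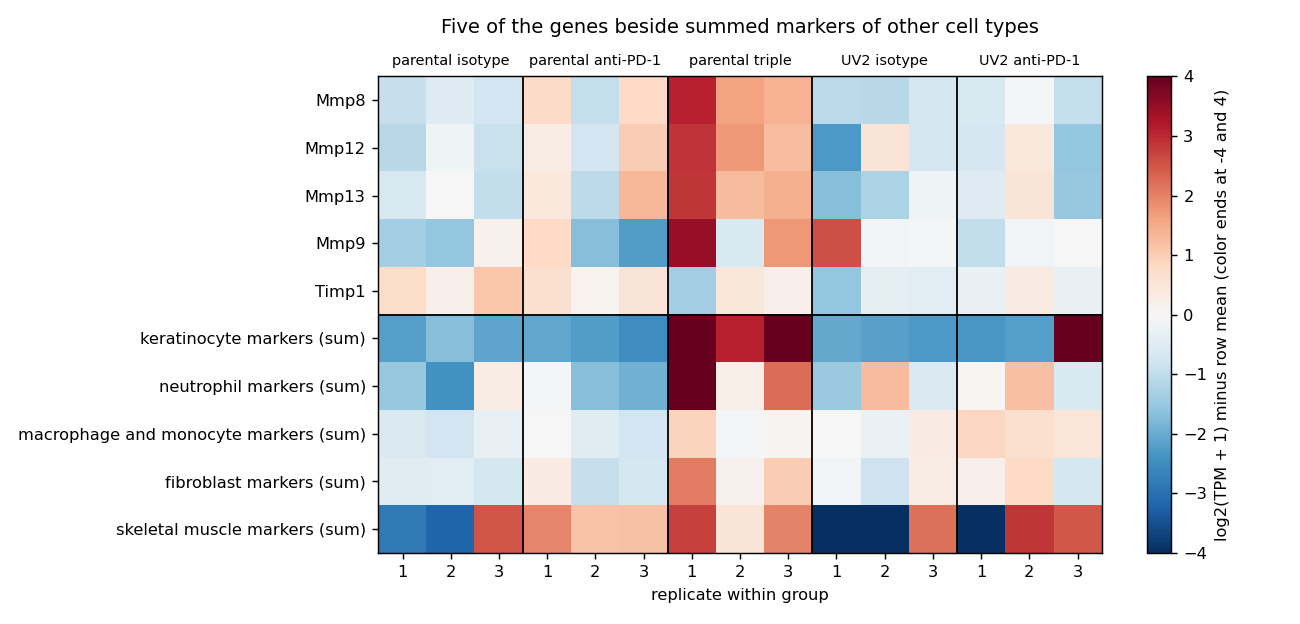
Log2(TPM + 1) of 5 of the genes (upper rows) and of summed markers of other cell types (lower rows) in each library, relative to the mean of the row over 15 libraries, with more extreme values drawn in the end colors of the scale. The rows of Mmp8, Mmp12 and Mmp13 and the rows of keratinocyte, neutrophil and fibroblast markers are all highest in triple-therapy replicate 1.

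The comparison of the lines asks how tumors with added putative neoantigens differ from parental tumors. Timp1 was lower in UV2 tumors, and this was the 1 member that passed a test, in the comparison averaged over isotype and anti-PD-1 (log2 fold change -0.99, SE 0.31, limma adjusted p = 0.0297). In that comparison 33% of all genes tested were called (1823 higher and 2661 lower), so 1 of 10 is below the background. With median-of-ratios scaling the split was 2448 higher and 2303 lower, the change of Timp1 was -0.82 and its call was lost (adjusted p = 0.0795). The call was also lost when parental isotype replicate 1, parental anti-PD-1 replicate 1 or 3, UV2 isotype replicate 1 or UV2 anti-PD-1 replicate 3 was left out, with adjusted p up to 0.0691. The log2 differences not given elsewhere were 1.20 for Mmp9, -0.30 for Mmp2, -0.49 for Mmp8, -0.44 for Mmp12 and -0.14 for Mmp19.

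Markers of some other cell types differed between the lines as well. In the averaged comparison, where 33% of all genes were called, 3 of 4 T cell markers were called higher in UV2 tumors and 0 lower (median log2 difference 1.68). Of 10 macrophage and monocyte markers 5 were called higher and 0 lower (median 0.63). Fibroblast markers were mixed, with 3 of 7 called higher and 1 lower (median 0.41). The T cell markers summed to 28.33, 121.27 and 117.39 TPM in UV2 isotype tumors and 20.26, 16.87 and 57.54 TPM in parental isotype tumors, and to between 145.52 and 210.54 TPM and between 15.42 and 52.39 TPM under anti-PD-1. The macrophage and monocyte sums were between 3276 and 4921 TPM in UV2 isotype tumors and between 2305 and 3108 TPM in parental isotype tumors. The part of these cell types in the difference of Timp1 was not tested.

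Timp1 was 433.33, 987.17 and 919.51 TPM in UV2 isotype tumors and 2109.19, 1476.31 and 2712.86 TPM in parental isotype tumors. All 3 UV2 values were below all 3 parental ones, as were 9.15% of genes tested, and 1.29% of genes were called (123 higher and 53 lower, or 65 and 82 with median-of-ratios scaling). The log2 difference of Timp1 was -1.47 (SE 0.44, limma adjusted p = 0.108), and 0 of the 10 genes were called. Under anti-PD-1, Timp1 was 1026.22, 1642.51 and 1037.14 TPM in UV2 and 1986.75, 1405.74 and 1813.65 TPM in parental tumors. These groups overlapped, with a log2 difference of -0.51 (SE 0.44, adjusted p = 0.377). From the highest mean to the lowest, the groups ran parental isotype (2099 TPM), parental anti-PD-1 (1735 TPM), UV2 anti-PD-1 (1235 TPM), triple therapy (1223 TPM) and UV2 isotype (780 TPM). The ranges of each pair of neighbours in this order overlapped.

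Mmp10 was 0.69, 0.71 and 2.41 TPM in UV2 isotype tumors, all below the parental isotype values of 4.83, 3.67 and 6.21 TPM. Its log2 difference of -1.44 did not pass the test (SE 0.96, limma adjusted p = 0.475). Under anti-PD-1 the values scattered from 0.07 to 8.28 TPM in UV2 and from 0.37 to 22.20 TPM in parental tumors. Mmp14 was lower in UV2 tumors by 0.45 on the log2 scale in the averaged comparison (SE 0.20, adjusted p = 0.0879), with 535.85, 378.08 and 569.43 TPM in UV2 isotype tumors and 729.85, 763.17 and 533.35 TPM in parental isotype tumors. Mmp9 differed in the other direction, by 1.71 under isotype (SE 1.04, adjusted p = 0.426), with UV2 isotype replicate 1 at 133.59 TPM, and by 0.83 without that library. The remaining differences under isotype were -0.29 for Mmp2, 0.12 for Mmp3, -0.22 for Mmp8, -0.09 for Mmp12, -0.51 for Mmp13 and -0.43 for Mmp19.

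Under anti-PD-1, 26.4% of genes were called between the lines (1265 higher and 2321 lower in UV2, or 1950 and 1793 with median-of-ratios scaling). None of the 10 genes was called there (0 of 10, with 0 at an unadjusted p under 0.05 in limma), and the 2 lines overlapped for every one of them, whereas 16.9% of all genes were higher and 34.3% lower in all 3 UV2 tumors. Without parental anti-PD-1 replicate 3 the model called 9 genes. The log2 differences were 1.01 for Mmp3, 0.69 for Mmp9, 0.14 for Mmp19, -0.31 for Mmp2, -0.45 for Mmp14, -0.73 for Mmp13, -0.75 for Mmp8, -0.78 for Mmp12 and -0.92 for Mmp10, and the adjusted p ran from 0.213 for Mmp14 to 0.675 for Mmp19. The median log2 difference of the 10 genes was -0.48 under anti-PD-1 and -0.36 under isotype, beside -0.21 and -0.04 over all genes tested. Macrophage and monocyte markers summed to between 5538 and 6990 TPM in UV2 anti-PD-1 tumors and between 2328 and 3941 TPM in parental anti-PD-1 tumors. In the same tumors Mmp12 was 6.49, 15.05 and 3.17 TPM in UV2 and 13.91, 6.09 and 23.21 TPM in the parental line, and the part of macrophages in these values was not tested.

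Anti-PD-1 against isotype was compared within each line. In parental tumors no gene of the 13592 was called (0%, with 83 at an unadjusted p under 0.05 in limma), and the 10 genes all overlapped between the groups, where 2.7% of all genes were higher and 1.57% lower without overlap. The 10 had a median log2 difference of 0.04. The largest were those of Mmp8 (0.93, SE 0.50), Mmp12 (0.91, SE 0.71) and Mmp13 (0.77, SE 0.66), each with an adjusted p of 1. The other 7 were 0.05 for Mmp10, 0.04 for Mmp19, 0.04 for Mmp14, -0.06 for Mmp2, -0.15 for Mmp9, -0.17 for Mmp3 and -0.25 for Timp1. For all 3, replicates 1 and 3 of the anti-PD-1 group were above every isotype tumor and replicate 2 was not. In UV2 tumors 0.0147% of genes were called, none of the 10 among them. Timp1 was higher in all 3 anti-PD-1 tumors than in all 3 isotype tumors, as were 5.7% of genes, with a log2 difference of 0.72 (SE 0.44, adjusted p = 0.575). Mmp19 was 57.60, 49.01 and 62.54 TPM under anti-PD-1 and 25.89, 32.61 and 57.07 TPM under isotype, a log2 difference of 0.61 (SE 0.25, adjusted p = 0.542). The other 8 differences in UV2 were 0.71 for Mmp3, 0.57 for Mmp10, 0.55 for Mmp13, 0.40 for Mmp8, 0.21 for Mmp12, 0.04 for Mmp14, -0.08 for Mmp2 and -1.17 for Mmp9.

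Whether anti-PD-1 acted differently in the 2 lines was tested as a contrast of contrasts. No gene was called (0% of 13592, with 404 at an unadjusted p under 0.05 in limma), and the adjusted p of the 10 genes lay between 0.80 and 0.998. The differences were 0.96 for Timp1 (SE 0.63) and -1.02 for Mmp9 (SE 1.47). For the other 8 genes they were 0.89 for Mmp3, 0.57 for Mmp19, 0.52 for Mmp10, 0.00 for Mmp14, -0.02 for Mmp2, -0.22 for Mmp13, -0.53 for Mmp8 and -0.69 for Mmp12.

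The summed TPM of the 9 Mmp genes was divided by that of Timp1, as a description without a test. Mmp14 and Mmp2 made up 67.5% to 91.4% of the sum. How strongly Timp1 protein blocks each enzyme was not measured, so the ratio is one of transcripts and not of inhibition. Other inhibitors are not part of this ratio, although Timp2 averaged 541 TPM and Timp3 107 TPM over the 15 libraries. The ratio was 0.694, 1.03 and 0.412 in parental isotype tumors and 0.789, 0.850 and 0.785 under anti-PD-1. Under triple therapy it was 7.46, 0.819 and 1.25. UV2 tumors had 2.94, 0.877 and 1.44 under isotype and 1.22, 1.18 and 0.674 under anti-PD-1. The mean was 0.712 ± 0.309 (SD, n = 3) in parental isotype tumors, 3.18 ± 3.72 in triple-therapy tumors and 1.75 ± 1.07 in UV2 isotype tumors. Triple-therapy replicate 1 decided the mean of its group, which was 1.04 without it, and without UV2 isotype replicate 1 the mean of the UV2 isotype group was 1.16. The same library and UV2 isotype replicate 1 had the 2 lowest Timp1 values and the 2 highest Mmp9 values of the series.

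**Figure D4:**
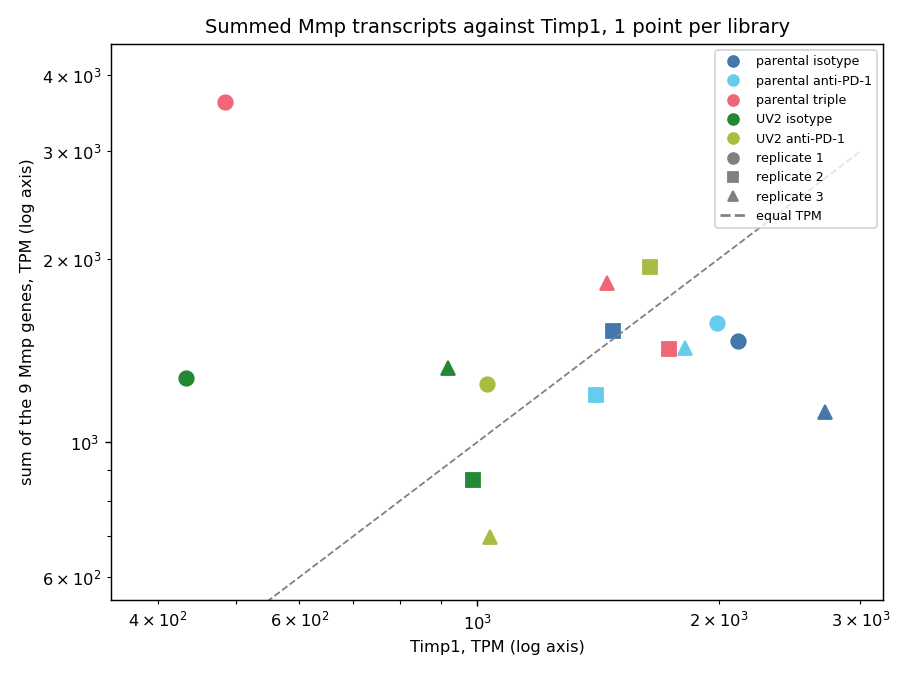
Summed TPM of the 9 Mmp genes against Timp1 TPM (log axes), 1 point per library, with a dashed line of equal TPM. Triple-therapy replicate 1 (3613 against 484.18 TPM) and UV2 isotype replicate 1 (1273 against 433.33 TPM) lie far above the line, and parental isotype replicate 3 (1119 against 2713 TPM) lies farthest below it.

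Across the 15 libraries, which share the 5 groups and the tumors that stand apart, several of the genes varied together. As a description, the gene most like Mmp8 was Mmp13 (Pearson correlation 0.95 of log2(TPM + 1), n = 15), followed by Tmem182 and Gpr97. Mmp12 was most like Mmp13 (0.91), Mmp8 (0.89) and Hilpda. For Mmp13 the list was Mmp8, Gpr137b and Gpnmb. Mmp14 was nearest to Sparc (0.96), Slc6a8 and B3gnt9, and Mmp2 to B3gnt9 (0.96), Ppapdc1b and Col5a2, which encodes a fibrillar collagen chain. Mmp9 was nearest to Slc9b2 (0.93), Tmem204 and Dcstamp, a gene of osteoclast fusion. Mmp3 was nearest to Olfr856-ps1, Acrbp and Hoxb2, Mmp10 to Preb, Acat3 and Bcat1, and Mmp19 to Il1rl1 and Tmem252 among others. Timp1 was nearest to Tnfsf9 (0.93), Eif4ebp1 and Oaf. Of the 45 pairs of the 10 genes, 4 had a negative correlation, and Timp1 was in all 4. Its correlation was -0.63 with Mmp9, -0.24 with Mmp2, -0.11 with Mmp8 and -0.10 with Mmp3. With the other enzymes it was positive, from 0.007 for Mmp13 to 0.23 for Mmp10.

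Other genes of matrix turnover were read from fixed lists. Among the 14 further Mmp genes listed, 9 were tested, and 5 were below the filter (Mmp1b, Mmp7, Mmp20, Mmp21 and Mmp24). Mmp11, stromelysin 3, and Mmp23 were the most abundant of them, with means of 31.0 and 27.8 TPM. In the averaged line comparison 1 of the 9 was called, beside 33% of all genes tested. It was Mmp25, higher in UV2 by 0.86 (limma adjusted p = 0.0476), and its call was lost in 8 of the 12 fits that left out 1 library. Under anti-PD-1, where 26.4% of all genes were called between the lines, Mmp23 was called higher in UV2 (2.32, limma adjusted p = 0.0427) and Mmp16 lower (-1.75, adjusted p = 0.0319). Both calls were lost in 5 of the 6 fits that left out 1 library (adjusted p up to 0.131 and 0.110). The call of Mmp23 was also lost with no filter on low values.

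Among the other inhibitors, Timp3, which binds to the matrix, differed in the opposite direction to Timp1. It was 261.84, 151.32 and 220.73 TPM in UV2 isotype tumors and 66.13, 96.79 and 38.91 TPM in parental isotype tumors. All 3 UV2 values were above all 3 parental ones, as were 10.4% of genes, and the log2 fold change was 1.69 (SE 0.30, limma adjusted p = 0.0290). In that comparison 1.29% of all genes were called. The call of Timp3 was lost when the 2 groups were fitted alone or the replicate number was added, and in 4 of the 6 fits that left out 1 library. In the averaged comparison, which includes the same isotype libraries and where 33% of all genes were called, Timp3 was higher by 1.13 (limma adjusted p = 0.00347). Timp2 fell there by 0.59 (limma adjusted p = 0.0333), while Reck did not pass. The call of Timp2 was lost in 6 of the 12 fits that left out 1 library. Between the lines under anti-PD-1 alone, 26.4% of all genes were called. Of the 3 other inhibitors tested, 0 were called higher and 1 lower there, or 1 higher and 0 lower with median-of-ratios scaling.

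Of the plasminogen system, which activates several Mmp precursors, the urokinase receptor Plaur was called lower in UV2 tumors in the averaged comparison (-1.20, adjusted p = 0.0166). Of 17 tested Adam and Adamts proteases 4 were called lower and 0 higher, led by Adamts1 (-2.38, adjusted p = 0.000639). Adam19, 1 of the 4, lost its call in 6 of the 12 fits that left out 1 library. In this comparison 33% of all genes were called, which is the background for the counts of this and the next paragraph. Of 7 other matrix proteases 1 was called, Ctss, a cathepsin of antigen-presenting cells (1.33, adjusted p = 0.00552), and with median-of-ratios scaling 3 of the 7 were called higher. Of 15 matrix substrates 1 was called higher, Lum (1.19), and 2 lower, Lamc1 (-1.48) and Spp1 (-1.48), of which Spp1 lost its call in 3 of the 12 fits that left out 1 library. Of 8 partners and receptors 6 were called lower and 0 higher, among them Cd44, which anchors Mmp9 at the cell surface (-1.30, adjusted p = 0.0035), and Thbs1 (-1.25). With median-of-ratios scaling 4 of these 8 were called lower, without Bsg and Cd63, and the call of Cd63 was lost in 8 of the 12 fits that left out 1 library.

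Of 17 AP-1 components and inducing signals, 4 were called higher in UV2 tumors and 6 lower in the averaged comparison. Of these 10 calls, those of Junb and Tgfb1 (higher) and of Areg and Hbegf (lower) were lost in 7 or 8 of the 12 fits that left out 1 library. Tnf, a cytokine that induces Mmp genes, was higher by 1.26 (limma adjusted p = 0.000639) and Jund by 0.84. The AP-1 subunits Fosl1 and Fosl2 were lower by 1.75 and 1.26 on the log2 scale. Mmp13, Mmp3 and Mmp10, whose promoters held the AP-1 letters printed above, had log2 differences of -0.62, 0.56 and -1.18 in the same comparison, and none passed the test. In each comparison of treatments within a line, 0 genes of these 8 lists were called, beside at most 0.0221% of all genes tested.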

How the data were processed

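RNA of 15 bulk tumors was sequenced. The authors deposited TPM values per gene symbol, and the submitters' processing notes name Bowtie2, RSEM and the builds mm10 and GRCm38, without versions. Per the labels' protocols, total RNA was isolated before library preparation, and strandedness is not given in the sources used here. TPM keeps no read depth, so no counting interval can be given. All 15 sample columns were used, leaving 0 unused.

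From the deposited values, log2(TPM + 1) was computed for the 13592 genes with at least 1 TPM in at least 3 libraries. One limma model (version 3.58.1, R 4.3.3) with a coefficient per group was fitted (trended and robust prior, 10 residual degrees of freedom). Tests in the 8 comparisons were two-sided, and a gene was called when its p, adjusted by Benjamini-Hochberg across the tested genes, was under 0.05. Fold changes are on the log2(TPM + 1) scale, which understates those of low genes such as Mmp8. The model code was tested on simulated data. With 3 against 3 libraries an exact permutation test cannot go below 0.1, so none was used.

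All 10 genes are named in every comparison. Listed genes are named where they were called, were among the 3 most abundant of their list, or define a cell type, and the 3 genes most correlated with each of the 10 are named. Some genes that this rule names are not reported here. The genes and lists were chosen with earlier results of these data known. Positions come from GENCODE M21 (GRCm38) and promoters from RefSeq (GRCm38.p6). Adgre1 was matched by its older symbol, and Ly6g was not analysed here.

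Alternatives were a pseudocount of 0.1, no filter (18555 genes), median-of-ratios scaling, fitting each comparison by its own groups, a block for replicate number, and leaving out each library.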

Additional observations from a re-analysis of the deposited data

How the results depend on the processing

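Of 1000 alternative values of the 10 genes over the 8 comparisons, 933 kept their direction and side of the threshold, 6 lost a call, 3 gained one and 58 changed sign. The sign changes fell on 22 of 80 results, of which 0 were called and the largest had a log2 fold change of 0.92 in size. The calls gained were Mmp8 under triple therapy against isotype without triple-therapy replicate 2 (2.98), and, between UV2 and parental tumors averaged over the antibodies, Mmp10 without parental anti-PD-1 replicate 2 (-1.71) and Mmp14 without UV2 anti-PD-1 replicate 2 (-0.59).

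Counts of genes called differed more. Between the lines under isotype the 176 became 82 with no filter, 21 in the compared groups alone and 37 with a replicate block. Triple therapy against isotype went from 3 to 5 with a pseudocount of 0.1, and to 0 with no filter, with median-of-ratios scaling, in the compared groups alone and with the replicate block. Triple therapy against anti-PD-1 went from 0 to 4 with a pseudocount of 0.1. Anti-PD-1 in UV2 went from 2 to 1 with median-of-ratios scaling and to 0 in the compared groups alone, and to 3 with a pseudocount of 0.1, with no filter and with the replicate block. With median-of-ratios scaling 0 of the 10 genes were called in the averaged line comparison. Leaving out Mmp14 and Mmp2 from the enzyme sum lowered its ratio to Timp1 to 0.102 and 0.140 in parental isotype and anti-PD-1 tumors and to 0.370 and 0.274 in UV2 isotype and anti-PD-1 tumors, and gave 2.42, 0.168 and 0.250 in the triple-therapy tumors.

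Sign changes outside the left-out libraries were Mmp10 in parental anti-PD-1 (-0.30, pseudocount 0.1) and, with median-of-ratios scaling, Mmp19 between the lines averaged over the antibodies (0.024), Mmp14 (-0.039), Mmp19 (-0.035) and Mmp10 (-0.032) in parental anti-PD-1, Mmp2 in UV2 anti-PD-1 (0.050) and Mmp2 in the contrast of contrasts (0.18). That scaling moved the median of all genes from -0.21 to 0.03 in the line comparison under anti-PD-1, from -0.12 to 0.02 in the averaged one, from -0.11 to 0.01 for anti-PD-1 in UV2, and from -0.16 to 0.03 in the contrast of contrasts. The cause of the other changes was not tested.

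Leaving out 1 library at a time gave these ranges. Genes called ran from 3 to 457 between the lines under isotype, 9 to 4077 under anti-PD-1, 2660 to 5816 averaged, 0 to 3 for anti-PD-1 in UV2, 0 to 238 for triple therapy against isotype and 0 to 152 against anti-PD-1. Of the 10 genes, 0 to 2 were called in the averaged line comparison and 0 to 1 in triple therapy against isotype. In UV2 against parental under isotype, Mmp12 ran from -0.76 to 0.65, Mmp2 from -0.53 to 0.020 and Mmp3 from -0.18 to 0.56. Under anti-PD-1, Mmp2 ran from -0.75 to 0.19 and Mmp10 from -1.99 to 0.052. For anti-PD-1 in the parental line the ranges were -1.07 to 0.44 for Mmp9, -0.30 to 0.11 for Mmp2, -0.12 to 0.13 for Mmp14, -0.10 to 0.18 for Mmp19, -0.92 to 1.12 for Mmp10 and -0.82 to 0.60 for Mmp3. In UV2 they were -0.53 to 0.88 for Mmp12, -0.52 to 0.42 for Mmp2, -0.22 to 0.36 for Mmp14 and -0.21 to 1.35 for Mmp10. In the contrast of contrasts they were -0.46 to 0.48 for Mmp2, -0.26 to 0.33 for Mmp14, -0.55 to 1.49 for Mmp10 and -0.86 to 0.32 for Mmp13. For triple therapy against anti-PD-1 they were -0.0055 to 0.33 for Mmp14 and -0.33 to 1.71 for Mmp10.

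Replicate numbers did not pair the libraries: the correlation of deviations from the group means over 30 same-numbered pairs ran from -0.54 to 0.47 with a median of -0.08, and 10 exceeded 0.1. The replicate block left the call of Timp1 in place (adjusted p = 0.0288 in limma) and changed no other call of the 10 genes. Of 1143 alternative values of listed genes that were called, 271 lost the call and 0 changed sign.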
